A study of Homo sapiens with 12 samples.

Results

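The 10 forkhead genes FOXC1, FOXC2, FOXF1, FOXF2, FOXL1, FOXQ1, FOXD1, FOXP1, FOXO1 and FOXM1, known from tissues of mesodermal and neural crest origin, were examined for open chromatin in U2OS cells, an established human osteosarcoma cell line. A peak of any of the 9 deposited lists belonged to a gene if it overlapped the gene body or the 50 kb on either side of it on GRCh38 (hg38). These windows held 155 of 276021 regions in 1 set of lists and 64 of 102872 in the other. They cover 1.62 Mb in all, since the windows of FOXF1, FOXC2 and FOXL1 on chromosome 16 overlap each other and those of FOXQ1 and FOXF2 on chromosome 6 do too. Of the 155 regions, 13 fall in more than 1 window, as do 8 of the 64, and each was counted once in totals.

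The 12 samples, in 6 groups of 2 by their labels, were profiled by ATAC-seq, an assay whose transposase cuts and tags open DNA. The FOXA2 set has 1 list for each sample and consists of wild-type U2OS, U2OS with Tet-on FOXA2 (full length) and U2OS with Tet-on FOXA2dCTD (FOXA2 without the domain the labels abbreviate as CTD). The SOX2 set has 1 list per group and consists of a wild type of its own, Tet-on SOX2 and Tet-on SOX2FOXA2CTD, a fusion of SOX2 with the CTD of FOXA2. Tet-on constructs are switched on by doxycycline, which the construct samples had received at 500 ng/ml for 4 days. The treatment and genotype fields of both wild types read NA, although their protocol text also names doxycycline, and the title of the second wild type names the SOX2 line. Whether either wild type carried a silent construct or was given the drug is therefore not known. The samples are titled as biological replicates. The labels do not say how many clones a line represents.

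Forkhead proteins bind DNA through a winged-helix domain, and FOXA2, itself a forkhead protein of endoderm and its derivatives, is known as a pioneer factor that can bind sites within closed chromatin. FOXC1, FOXC2, FOXF1, FOXF2, FOXL1 and FOXD1 mark mesenchyme in the embryo, each in its own organs, and several lie in small genomic clusters. FOXP1, FOXO1 and FOXM1 act in many cell types. SOX2 is a pioneer factor of pluripotent and neural cells that belongs to another family, the HMG-box proteins.

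Sequences next to 5 start sites introduce the promoters, because the calls at them range from none to 7 of the 9 lists. The first is FOXD1, the lineage-restricted member called in the most lists. FOXO1 is shown as a CpG-rich promoter that was called in most lists and FOXQ1 as a CpG-rich promoter that was called in none. The last pair lies inside FOXP1, where a start holding a forkhead motif and a very CpG-rich start holding a SOX motif were called in no list. Each line gives the 250 bases upstream of the annotated start, 5′ to 3′ in the direction of transcription, from RefSeq (GRCh38.p14), and capitals mark motif matches.
FOXD1, chr5:73448778-73449027, minus strand: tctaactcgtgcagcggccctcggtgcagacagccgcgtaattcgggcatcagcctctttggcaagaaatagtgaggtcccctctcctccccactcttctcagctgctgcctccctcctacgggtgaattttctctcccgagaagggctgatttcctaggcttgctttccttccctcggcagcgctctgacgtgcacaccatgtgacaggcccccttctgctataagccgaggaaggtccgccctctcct
FOXO1, chr13:40666642-40666891, minus strand: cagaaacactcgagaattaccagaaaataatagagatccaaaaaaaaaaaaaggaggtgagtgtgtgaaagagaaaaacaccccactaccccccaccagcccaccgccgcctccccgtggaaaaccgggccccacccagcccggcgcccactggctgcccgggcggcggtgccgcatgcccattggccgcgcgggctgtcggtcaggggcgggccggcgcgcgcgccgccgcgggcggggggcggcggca
FOXQ1, chr6:1311848-1312097, plus strand: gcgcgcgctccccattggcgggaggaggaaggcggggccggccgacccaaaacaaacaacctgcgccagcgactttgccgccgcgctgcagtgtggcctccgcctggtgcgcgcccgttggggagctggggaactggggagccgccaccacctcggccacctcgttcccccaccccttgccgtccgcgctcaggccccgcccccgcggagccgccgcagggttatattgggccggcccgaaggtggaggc
FOXP1 inner start with TGTTTAC, chr3:71245078-71245327, minus strand: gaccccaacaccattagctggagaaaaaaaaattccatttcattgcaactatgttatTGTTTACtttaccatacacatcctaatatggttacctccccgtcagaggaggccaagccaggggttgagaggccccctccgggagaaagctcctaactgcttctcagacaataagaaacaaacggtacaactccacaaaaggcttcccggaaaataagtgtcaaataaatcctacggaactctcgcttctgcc
FOXP1 inner start with CATTGT, chr3:71064925-71065174, minus strand: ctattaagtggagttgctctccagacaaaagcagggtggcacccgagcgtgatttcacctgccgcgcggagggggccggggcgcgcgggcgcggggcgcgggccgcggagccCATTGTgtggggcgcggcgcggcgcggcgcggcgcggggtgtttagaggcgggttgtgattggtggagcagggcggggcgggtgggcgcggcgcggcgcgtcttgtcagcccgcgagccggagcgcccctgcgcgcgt

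The promoter table held 11 starts of 6 members, 6 of them in FOXP1. FOXC2, FOXF1, FOXL1 and FOXM1 were not among them. In the 300 bases from 250 upstream to 50 downstream of a start, FOXD1 had 16 CpG dinucleotides, FOXO1 33, FOXQ1 35, FOXF2 26 and FOXC1 40, against a median of 14 over 35116 promoters of the same length. The 6 FOXP1 starts had 41, 2, 3, 7, 3 and 51, from the outermost to the innermost. The CpG counts did not order the calls: FOXQ1, with 35, was called in 0 lists, and FOXD1, with 16, in 7. The forkhead motif TGTTTAC, searched on both strands, was present in 1 of the 11 starts and in 3.42% of all promoters. The related TATTTAC was in 0 of the 11 and in 2.67% of all promoters, and the SOX motif CATTGT in 1 of the 11 and in 10.8%. None of these strings overlaps another, and a match is a run of letters and not a measured binding site.

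**Figure D1:**
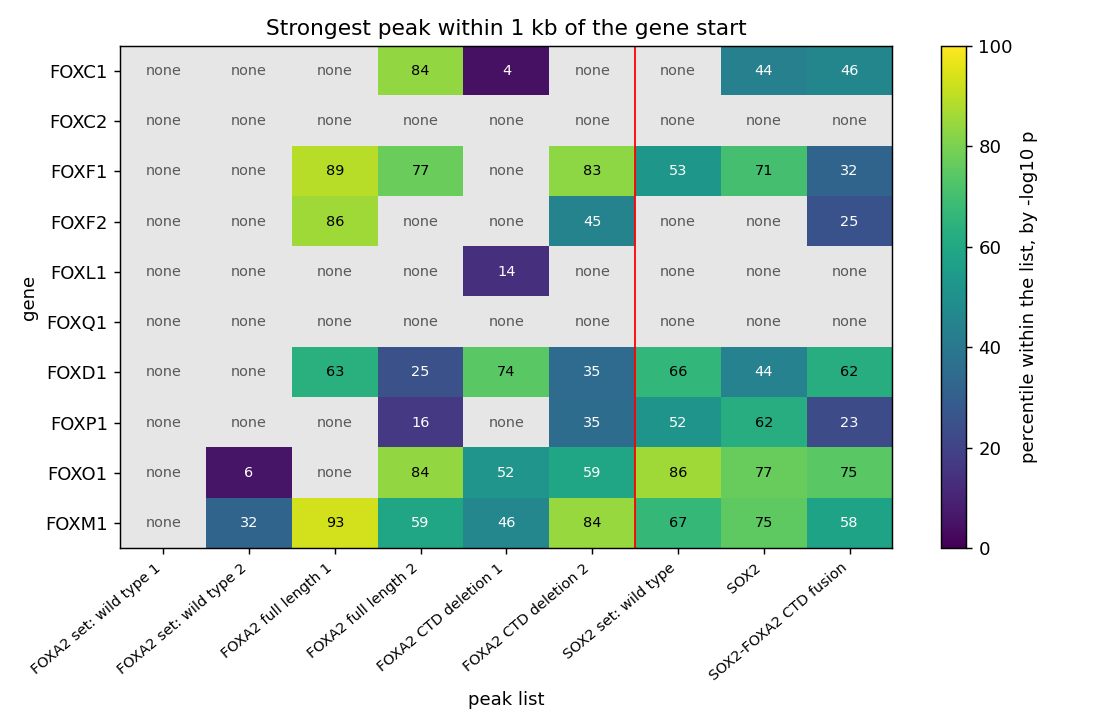
Strongest peak within 1 kb of each gene's start (rows) in each of the 9 peak lists (columns). Colour and number give its percentile within the list, and a grey cell marked "none" means no peak. FOXM1 was called in 8 lists, FOXD1 and FOXO1 in 7, FOXC2 and FOXQ1 in none.

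A promoter was counted as called where a peak lay within 1000 bp of the gene's start. In wild type replicate 1 this held for 0 of the 10 genes, against 36.2% of 15837 protein-coding starts, and in wild type replicate 2 for 2 of 10 against 34.8%. It held for 4 and 6 of 10 in the full-length FOXA2 libraries (replicates 1 and 2), against 62.6% and 55.1%. The libraries with the CTD deletion had 5 and 6 of 10, against 48.7% and 62.9%. The wild type of the SOX2 set had 5 of 10 against 54.7%, SOX2 6 of 10 against 57.2% and the fusion 7 of 10 against 52.1%. Both wild-type libraries of the FOXA2 set and full length replicate 1 thus stood furthest below the share of all starts. The fusion stood above it, at 70% against 52.1%, and the remaining lists were nearer to it on either side. No member was called in all 6 FOXA2-set libraries, where 26.9% of all starts were. All 3 lists of the SOX2 set shared 5 members (42.4% of all starts), namely FOXF1, FOXD1, FOXP1, FOXO1 and FOXM1. FOXC2 and FOXQ1 were called in none of the 9 lists, a group that holds 27.3% of all starts, and had no entry there at any IDR in the SOX2 set.

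The 2 wild types were not alike at these promoters. The second set's wild type had peaks at the starts of FOXF1, FOXD1 and FOXP1, which neither wild-type library of the FOXA2 set had. The lists of the FOXA2 set held 19862 and 25088 peaks for the wild type, 161136 and 57946 for full-length FOXA2, and 78820 and 146854 for the CTD deletion. For the SOX2 set the numbers were 48142 in wild type, 65628 with SOX2 and 75544 with the fusion, at an irreproducible discovery rate (IDR, a measure of how well a peak repeats between inputs) of at most 0.05. Read depth is unknown, and the part of list length in these differences was not tested.

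Promoters of marker genes were looked up as well, and bone or mesenchymal ones were called for 2 to 6 of 9 genes per list. In the FOXA2 set these were 3 and 2 in wild type, 4 and 5 with full length, and 2 and 5 with the deletion. The shares of all starts were 36.2% and 34.8%, 62.6% and 55.1%, and 48.7% and 62.9%. The SOX2 set had 5 in wild type, 6 with SOX2 and 6 with the fusion, against 54.7%, 57.2% and 52.1%. The counts thus lay on both sides of those shares and do not identify the cell line. SPARC was called in all 9 lists, COL1A1 in 8 and RUNX2 in 7. TWIST1, CDH11 and ALPL were called in none. None of 4 blood genes had a promoter peak in any list. Of 5 epithelial genes 2, KRT8 and KRT18, were called in every list, and 4 were called in the SOX2 list, EPCAM and ESRP1 being the others. Among endoderm or liver genes, SOX17 was called in 6 lists, HNF4A in wild type replicate 1 alone, and ALB and AFP in none. Of 5 pluripotent or neural genes each list had at most 2: the promoter of SOX2 was called in every list but wild type replicate 2, NANOG in 1, and POU5F1, PAX6 and SOX1 in none. A promoter call shows open chromatin and not expression.

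The windows held 12 and 11 peaks in the wild-type libraries of the FOXA2 set, 88 and 37 with full-length FOXA2 and 49 and 89 with the CTD deletion. Both construct groups lay above the wild type without overlap. As a share of each list these are 0.0604% and 0.0438%, 0.0546% and 0.0639%, and 0.0622% and 0.0606%, so the windows grew about as the lists did. When each list was limited to its 19862 strongest peaks, the windows held 12 and 8 peaks in the wild type, 10 and 9 with full-length FOXA2 and 7 and 9 with the CTD deletion. At this equal length the groups overlapped. For the SOX2 set the windows held 37 peaks in the wild type, 41 with SOX2 and 48 with the fusion, and at 48142 peaks in each list 37, 34 and 31. With equal numbers the order of these 3 lists was thus the opposite of that with all peaks. The exact permutation test of 2 libraries against 2 cannot give a two-sided p below 0.33, and the SOX2 set has 1 list per group, so no test is given for any comparison here.

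**Figure D2:**
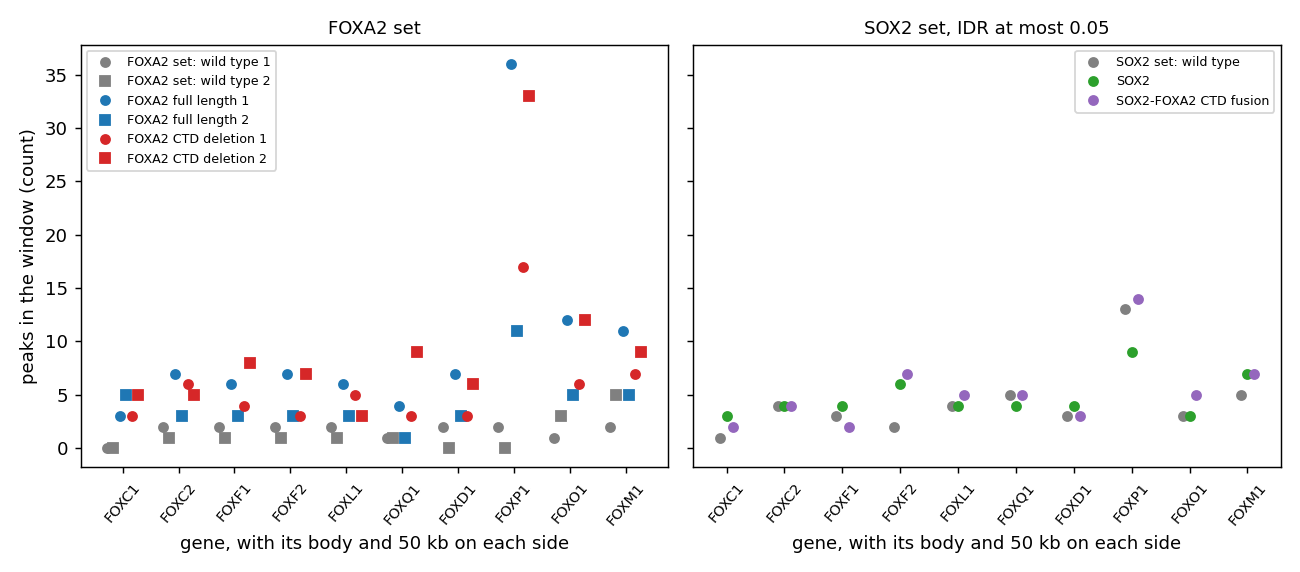
Peaks in the window of each gene (x axis) per peak list (y axis, count), for the 6 libraries of the FOXA2 set and the 3 lists of the SOX2 set at an IDR of at most 0.05. FOXP1, which has the longest window, had 36 and 11 peaks in the full-length libraries and 17 and 33 in the CTD deletion libraries. The wild-type libraries had 2 and 0, in shorter lists of 19862 and 25088 peaks. The full-length lists held 161136 and 57946 peaks and the deletion lists 78820 and 146854.

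Full-length FOXA2 was compared with wild type by asking which regions were called in both of its libraries and in neither wild-type library, here called gained. Every one of the 10 genes had at least 1 gained region in its window, a property shared by 73.4% of 19970 coding genes. Over the windows 17 of 155 regions were gained, or 10.97%, against 9.06% of all regions. FOXP1, a transcriptional repressor that acts in lymphocytes, neurons and heart, held 8 of the 17 and FOXM1 held 2. The FOXP1 window holds 61 of the 155 regions. Of the 155 regions 100 were called in 1 library only, against 69% of all regions. The opposite class, lost, was empty in the windows and held 0.155% of all regions. Of the 17 regions, 3 lay at a member's start (FOXF1, FOXD1 and FOXM1), 9 in a gene body and 5 in flanks.

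With the CTD deletion 18 of 155 regions were gained (11.6%), against 8.72% of all regions, and 0 were lost, against 0.0576%. Counted by window, where a region can count for neighbours too, FOXP1 again held 8. FOXD1 had 3, FOXC2, FOXO1 and FOXM1 had 2 each, FOXC1, FOXF1 and FOXL1 had 1 each, and FOXF2 and FOXQ1 had none. Hence 8 of the 10 genes had a gained region, against 68.8% of coding genes. In both comparisons the windows stood near the background of all regions.

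Both constructs gained 9 regions in the windows, against 4.29% of all regions. These 9 are 52.9% of the regions gained with full length and 50% of those gained with the deletion, where over all regions the shares were 47.4% and 49.2%. Most of the others were near misses: of 8 regions gained with full length alone, 6 were called in 1 library of the deletion. Of 9 gained with the deletion alone, 8 were called in 1 library of full length. Calls in the other construct were common over all gained regions too. CTD deletion replicates 1 and 2 had 58.8% and 82.4% of the regions gained with full length, against 53.8% and 75.4% over all such regions. Full length replicates 1 and 2 had 83.3% and 61.1% of those gained with the deletion, against 71.9% and 55.1%. Only 2 regions were gained with full length and called in neither deletion library (1.65% of all regions), both in FOXP1. Directly beside 1 of them, CTD deletion replicate 2 had a separate peak. One region was gained with the deletion and called in neither full-length library (1.94%), also in FOXP1. None of these 3 regions stayed in its class at equal numbers of peaks, where the FOXF1 start was the full-length-only region and chr13:40692926-40693507 at FOXO1 the deletion-only one, or at a common −log10 p threshold, where regions at FOXP1 (chr3:71109407-71109879) and FOXF2 (chr6:1381701-1382278) were full-length-only and none was deletion-only. The constructs share their wild-type libraries, and their lists differ more in length within a group than the group means do.

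Equal list length lowered these counts. How far the shares over all regions changed with it, or with the other settings below, was not counted. Limited to the 19862 strongest peaks per list, 2 regions were gained with full length (at FOXP1 and at the FOXF1 start) and 3 with the deletion (1 at FOXP1 and 2 at FOXO1), and 1 became lost with the deletion. With 1 common threshold, a −log10 p of at least 5.43, the counts were 9 and 3. The second replicates of wild type and full length differ from the remaining 4 libraries in having no mitochondrial peaks and a higher lowest −log10 p. Comparisons kept within each of these kinds of list gave 29 gained and 3 lost regions with full length in the first kind and 77 and 4 in the second, where the deletion had 21 gained and 2 lost. Without full length replicate 1 the regions gained with full length were 26, and without replicate 2 they were 75. Without CTD deletion replicate 1 those gained with the deletion were 72, and without replicate 2 they were 37.

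FOXP1 held the one region that was called in all 4 FOXA2 construct libraries, in no wild-type library, and in the gained class of both constructs under both of those settings. It lies at chr3:71564081-71564854, in the body of FOXP1, with its midpoint 19.5 kb downstream of the gene's outer end. Its percentile within the list (the share of peaks with a lower or equal −log10 p, ties averaged) was 92.6 and 67.5 in the full-length libraries and 86.2 and 90.5 in the deletion libraries. The deposited fold enrichment over the library's own background was 5.56, 7.84, 5.14 and 5.67 in the same order. In each of the 4 libraries it was the strongest peak of the FOXP1 window, at rank 11809 of 161136, 17699 of 57946, 10843 of 78820 and 13829 of 146854. No list of the SOX2 set had an entry at this place at any IDR, its wild type included.

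Along the rest of FOXP1 the gained regions were weaker and spread over the gene. Full length and deletion both gained chr3:71109277-71109982, 474.3 kb from the start, with percentiles of 87.2 and 40.8 for full length and 50.9 and 67.0 for the deletion. A further shared region, chr3:71128856-71129554, had 62.7, 16.4, 65.0 and 77.4 in the same order, and chr3:70982578-70983108 near the 3′ end had 49.4, 16.4, 55.3 and 51.5. The last of these was called in the wild type of the SOX2 set, and the first 2 had no entry in that set. The regions gained with full length and absent from both deletion libraries were chr3:71466951-71467250 (percentiles 49.4 and 40.8) and chr3:71548713-71549530 (49.4 and 16.4). The one gained with the deletion and absent from both full-length libraries was chr3:71027008-71027333, at 18.3 and 25.2. All 3 were thus at or below the middle of their lists. Directly beside chr3:71466951-71467250, however, CTD deletion replicate 2 had a separate peak, chr3:71467262-71467461, at 75.0. This region was full-length-only just because the 2 peaks do not overlap.

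**Figure D3:**
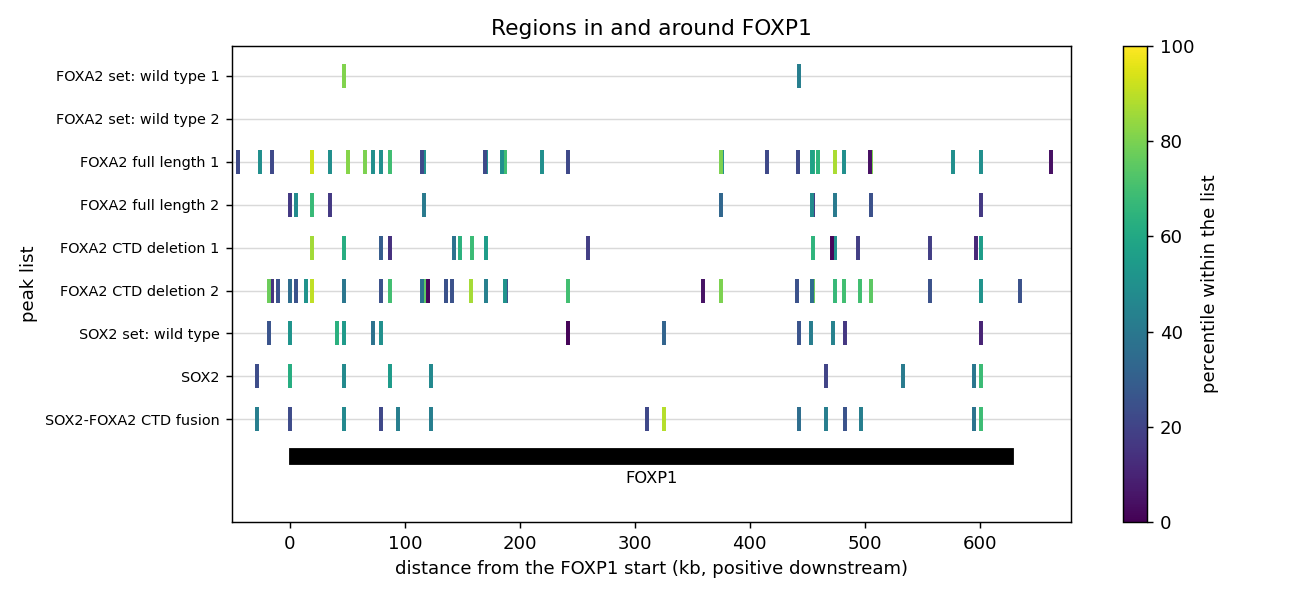
Peaks in the FOXP1 window by distance from the gene's start (x axis, kb, positive downstream) in each of the 9 lists (rows), coloured by percentile within the list. The peak 19.5 kb downstream is present in the 4 FOXA2 construct libraries and in no other list, and the inner starts of the gene have few peaks.

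At the FOXP1 starts the calls were uneven. The outermost annotated start in the promoter table was called in 5 lists, at percentiles of 16.4 (full length, replicate 2), 35.4 (CTD deletion, replicate 2), 51.9 (wild type of the SOX2 set), 62.3 (SOX2) and 22.99 (fusion). The next start inward was called in 1 list, the wild type of the SOX2 set, at 63.4. The other 4 starts, both printed FOXP1 sequences among them, were called in no list, including the innermost one with 51 CpG dinucleotides in 300 bases.

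FOXO1, which insulin signalling keeps out of the nucleus through AKT, had 1 region gained with full length and 2 with the deletion. The one shared by both constructs, chr13:40663979-40665100, lies 2.1 kb inside the gene and had percentiles of 93.6 and 63.5 for full length and 70.1 and 72.5 for the deletion. Its fold enrichment was 5.03, 7.50, 4.23 and 3.82. It was also called in the wild type of the SOX2 set at a percentile of 29.8, and it was not gained at equal numbers of peaks. The second, chr13:40692926-40693507 at -26.6 kb, was gained with the deletion at 78.0 and 91.8 and was called in full length replicate 2 at 47.7. It remained gained with the deletion at equal numbers of peaks and at the common threshold.

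The FOXO1 start itself was called in wild type replicate 2 at a percentile of 5.80, in full length replicate 2 at 83.9, and in the deletion libraries at 52.1 and 59.0. Full length replicate 1, the longest list of all, had no peak there. All 3 lists of the SOX2 set had it, at 85.8 (wild type), 76.8 (SOX2) and 74.5 (fusion). Downstream, beyond the gene's 3′ end, chr13:40540000-40540901 was called in all 6 libraries of the FOXA2 set, at 64.0 and 41.8 in the wild type, 93.5 and 91.9 with full length and 83.9 and 94.7 with the deletion. All 4 construct values lay above both wild-type values, but percentiles of lists that differ in length do not measure a change.

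FOXM1, which drives genes of the G2 and M phases of the cell cycle, had the promoter called in most lists. It had no peak in wild type replicate 1 and was at percentiles of 32.1 in wild type replicate 2, 93.2 and 58.8 with full length, 46.3 and 84.4 with the deletion, and 66.6, 75.3 and 58.1 in the wild type, SOX2 and fusion lists of the SOX2 set. The region at the start, chr12:2876745-2878256, met the definition of gained with both constructs only because the peak of wild type replicate 2 was a separate one, at chr12:2876411-2876641. The start also overlaps RHNO1, a gene of the opposite strand, so the signal cannot be assigned to 1 of them. The strongest peaks of the window belong to neighbours: that at the start of ITFG2, chr12:2812257-2813286, was at 87.7 and 89.3 in the wild type, 99.8 and 98.2 with full length and 98.3 and 97.9 with the deletion. That at the start of TULP3, chr12:2890400-2891636, was at 90.5, 92.6, 98.6, 98.0, 93.0 and 88.6 in the same order. The second gained region of the window, chr12:2884964-2885789 at -8.2 kb, was called in all 3 lists of the SOX2 set as well.

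FOXF1, a gene of lung and gut mesenchyme that responds to hedgehog signals, heads the cluster on chromosome 16. The region at its start, chr16:86509720-86510858, was called in both full-length libraries at 89.4 and 77.2, in CTD deletion replicate 2 at 82.9, and in neither wild-type library nor CTD deletion replicate 1. Fold enrichment was 4.80 and 8.86 with full length and 4.67 with the deletion. It was gained with full length also at equal numbers of peaks and at the common threshold. The same start was called in the wild type of the SOX2 set at a percentile of 52.8, in SOX2 at 70.6 and in the fusion at 32.2.

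FOXC2, known for lymphatic vessels and their valves, and FOXL1, known for the mesenchyme beneath the gut epithelium, follow in the same cluster. Their starts were called less often than that of FOXF1, which had 6 lists: FOXC2 had no promoter peak in any list, and FOXL1 had 1, in CTD deletion replicate 1, at 13.6. Close to FOXC2, at -2.9 kb, chr16:86563485-86564303 was called at 47.3 in wild type replicate 1, was absent from wild type replicate 2, and was called at 97.7 and 40.8 with full length and at 68.1 and 94.2 with the deletion. Between FOXC2 and FOXF1 the start of MTHFSD, chr16:86555003-86555563, was at 28.0 and 22.0 in the wild type, 88.0 and 53.6 with full length, and 81.6 in CTD deletion replicate 2. Downstream of FOXL1, chr16:86590453-86591485 was gained with both constructs at 34.4, 40.8, 70.7 and 69.9, and all 3 lists of the SOX2 set had a peak there too.

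**Figure D4:**
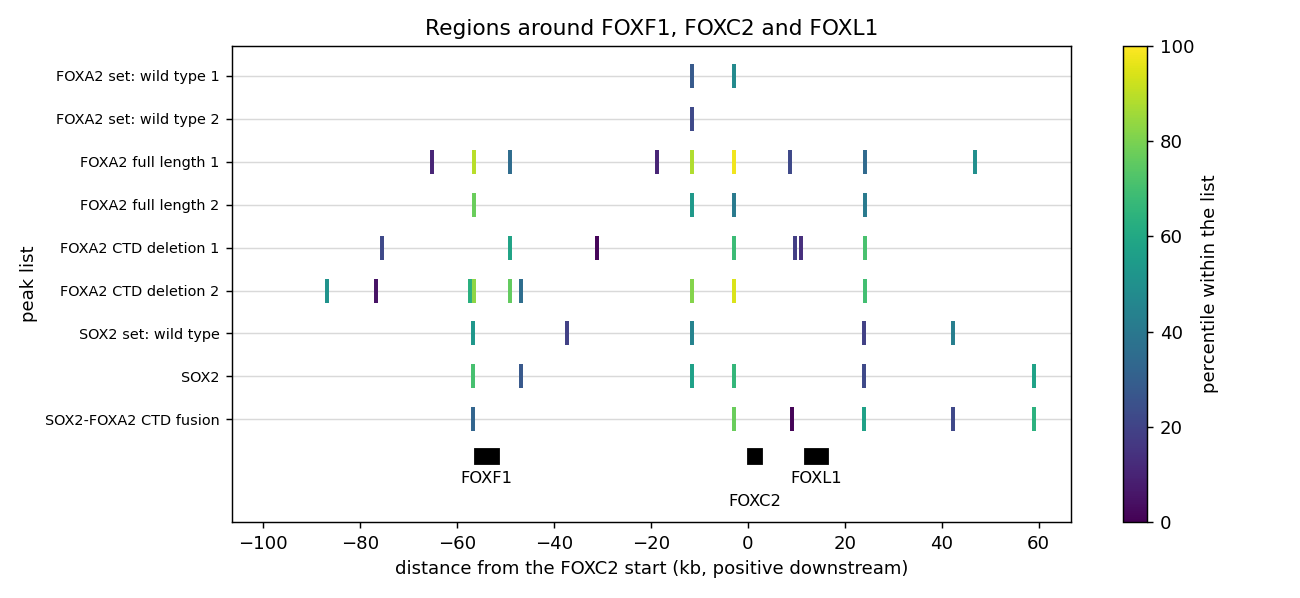
Peaks across the windows of FOXF1, FOXC2 and FOXL1 by distance from the FOXC2 start (x axis, kb, positive downstream) in each list (rows). Colour gives the percentile within the list. The FOXF1 start is called in 6 of the 9 lists, the FOXL1 start in 1 and the FOXC2 start in none.

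FOXF2, of palate mesenchyme and brain pericytes, and FOXQ1, known from hair follicles and from epithelial cells that turn mesenchymal, are neighbours on chromosome 6. The FOXF2 start was called in 3 lists, at 85.9 in full length replicate 1, 44.9 in CTD deletion replicate 2 and 25.0 in the fusion, while the FOXQ1 start was called in none. Upstream of FOXF2 at -7.6 kb, chr6:1381701-1382278 was gained with full length at percentiles of 86.5 and 9.16 and was called in CTD deletion replicate 2 at 67.4. Downstream of FOXF2, chr6:1424195-1424837 was one of 4 regions in all windows that every library of the FOXA2 set had (3.15% of all regions), at 65.5 and 5.80 in the wild type, 83.0 and 47.7 with full length and 47.2 and 82.3 with the deletion. FOXQ1 had 1 gained region, chr6:1316524-1316851, 4.6 kb downstream of its start, with full length at 49.4 and 40.8, and it was called in the wild type of the SOX2 set as well.

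FOXC1, needed for the anterior eye and the skull, had a different gained region with each construct. Full length gained chr6:1596189-1596946 at -13.3 kb, with percentiles of 10.5 and 63.5, and CTD deletion replicate 1 had it too at 18.3. The deletion gained chr6:1604103-1604763 at -5.5 kb, with 18.3 and 83.8, and full length replicate 2 had it at 40.8. This second region was also called in the wild type of the SOX2 set, at 58.3. The FOXC1 start was called in full length replicate 2 at 83.9 with a fold enrichment of 9.89 and in CTD deletion replicate 1 at 4.39 with a fold enrichment of 2.55, and in no other library of the FOXA2 set. The replicates of each construct thus disagreed on this promoter.

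FOXD1, known from the stroma of the developing kidney, had its start in all 4 construct libraries and in neither wild type of the FOXA2 set. At chr5:73448300-73449101, percentiles were 63.4 and 24.7 with full length and 74.3 and 35.1 with the deletion, and fold enrichments were 3.60, 5.45, 4.62 and 3.12. The SOX2 set had the start in all 3 lists, at 66.0 in the wild type, 44.4 with SOX2 and 62.2 with the fusion. Another 2 regions were gained with the deletion alone, chr5:73459214-73459762 at -10.7 kb and chr5:73488808-73489425 at -40.3 kb, and full length replicate 1 had both, at 69.4 and 80.4.

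**Figure D5:**
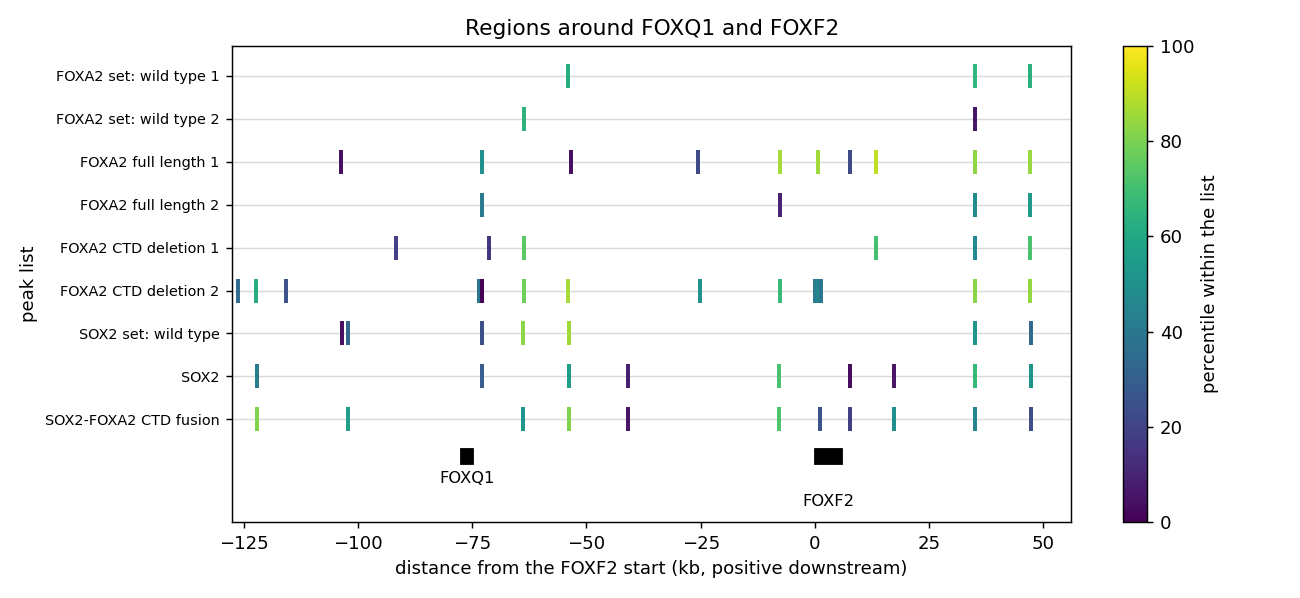
Peaks across the windows of FOXQ1 and FOXF2 by distance from the FOXF2 start (x axis, kb, positive downstream) in each list (rows). Colour gives the percentile within the list. No list has a peak at the FOXQ1 start, and the peak 7.6 kb upstream of FOXF2 is called in none of the 3 wild-type lists.

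In the SOX2 set a region was counted as gained where the construct's list had it at an IDR of at most 0.05 and the wild-type list did not, and as lost in the opposite case. With SOX2, 19 of 64 regions were gained (29.7%), against 33.9% of all regions, and 15 were lost (23.4%), against 17%. All 3 lists had 19 of the 64 regions (24.7% of all regions) and 1 list alone had 21 (41.4%). FOXP1, whose window holds 22 of the 64 regions, held 10 of the 15 lost regions and 6 of the 19 gained ones. FOXF2 had 4 gained and none lost, FOXQ1 had 2 gained and 3 lost, and FOXC1, FOXD1, FOXO1 and FOXM1 lost none. At least 1 region was gained in the windows of 9 genes (75.3% of coding genes) and lost in those of 5 (61.0%).

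The fusion of SOX2 with the CTD of FOXA2 gained 22 of the 64 regions (34.4%), against 43.7% of all regions, and lost 11 (17.2%), against 17.1%. FOXP1 gained 7 and lost 6, FOXF2 gained 5 and lost none, and FOXD1 neither gained nor lost a region. Gains were seen in the windows of 9 genes (76.8% of coding genes) and losses in those of 6 (64.7%). Both SOX2 constructs gained 14 regions, against 24.2% of all regions, which are 73.7% of those gained with SOX2 and 63.6% of those gained with the fusion (71.3% and 55.4% over all regions). SOX2 alone gained 5 that the fusion list lacked (9.72%), and the fusion alone 8 that the SOX2 list lacked (19.5%). The gained shares of these windows stood below the background for both constructs, and the 2 comparisons share 1 wild-type list.

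The 3 regions with the highest percentiles among those gained with SOX2 lay near FOXF2, FOXC2 and FOXL1. At -7.8 kb from FOXF2, chr6:1381279-1382368 was at 71.2 in the SOX2 list and 72.6 in the fusion list. Its wild-type entry failed at an IDR of 0.323, with −log10 p values of 25.7 in one input and 5.91 in the other. The region at -2.8 kb from FOXC2, chr16:86563454-86564506, was at 66.3 and 77.2 in the same order, and the wild-type entry failed at 0.526 with inputs of 7.40 and 2.43. Downstream of FOXL1, chr16:86625429-86626454 was at 57.5 and 63.9, and the wild type had no entry at any IDR. Only the third of these was thus without any trace in the wild type.

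The fusion's other leading gains were chr6:1266987-1268156, -44.5 kb from FOXQ1, at 81.1 (42.3 with SOX2), and chr12:2824436-2825459 in the FOXM1 window within ITFG2 and NRIP2, at 80.1 (35.4 with SOX2). The wild type had an entry at an IDR of 0.239 in the first and none in the second. FOXC1 gained its own promoter with both constructs, at 43.7 with SOX2 and 46.0 with the fusion, where the wild-type entry failed at 0.35 with inputs of 3.97 and 22.1. Within FOXP1, chr3:71086905-71087938 was the one fusion-only region without an entry of any IDR in the SOX2 or the wild-type list, at 42.2.

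Among the losses, chr3:71542393-71542969 in FOXP1, beside the second of its annotated starts, was at 63.4 in the wild type and was called with neither construct, with failing entries at 0.349 for SOX2 and 0.119 for the fusion. FOXQ1 lost chr6:1325245-1326212, 13.6 kb downstream, with SOX2 (82.5 in the wild type, 53.0 with the fusion), where the SOX2 entry failed at 0.0811. FOXP1 lost chr3:71504187-71505000 with SOX2 too (49.7 in the wild type, 21.6 with the fusion). The fusion list lacked chr6:1604040-1604869 upstream of FOXC1 (58.3 in the wild type, 80.8 with SOX2), where its entry failed at 0.335, and the MTHFSD start, chr16:86554794-86555780 (44.6 and 56.7), where it failed at 0.104. None of these losses was therefore a complete absence from the construct's list.

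That held widely. Of the 15 regions lost with SOX2, 11 had a failing entry in the SOX2 list (65.8% over all lost regions), and of the 11 lost with the fusion, 8 had one (75.0%). Of the 19 gained with SOX2, 11 had a failing entry in the wild type (37.4%), and of the 22 gained with the fusion, 9 (28.1%). All 5 regions in the SOX2-only class had an entry in the fusion list (90.9%) and 7 of the 8 fusion-only regions had one in the SOX2 list (74.0%). When a failing entry also counted as a call on the side of the missing list, 8 were gained and 4 lost with SOX2, 13 gained and 3 lost with the fusion, and 0 and 1 were specific to SOX2 and to the fusion.

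Across the sets, 26 regions of the windows were gained with at least 1 FOXA2 construct. The wild type of the SOX2 set had 10 of them called (38.5%), against 23.7% of all regions gained with a FOXA2 construct. For full length these were 8 of 17 (20.9% over all regions) and for the deletion 8 of 18 (26.4%). They include the starts of FOXF1 and FOXD1, the 2.1 kb region of FOXO1 and the shared region downstream of FOXL1, which were called in cells labelled wild type in one set and not in the other. The FOXM1 start is among them too, but the separate peak of the second FOXA2-set wild type lies there.

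Of the 26 regions, 10 had no entry of any IDR in the SOX2 set. Of these 10, 9 lay within FOXP1, the tenth being chr5:73488808-73489425 near FOXD1. The FOXP1 window spans 729 kb of the 1.62 Mb and holds 61 of the 155 regions. The share without an entry was not counted over all regions gained with a FOXA2 construct. Constructs of both sets gained 3 of the 26 regions, and this share was not counted over all such regions either. The one at -7.6 kb from FOXF2 was gained with full-length FOXA2, SOX2 and the fusion. The one at -26.6 kb from FOXO1 was gained with the CTD deletion and the fusion, where the fusion was at 12.8. The one 87.1 kb into FOXP1, chr3:71496499-71497169, was gained with the CTD deletion at 13.9 and 69.9 and with SOX2 at 54.4. In all 3 the wild type of the SOX2 set had a failing entry, at an IDR of 0.323, 0.526 and 0.215.

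Positions next to the 50 kb limit were as follows. The region nearest to an edge on the inside lay 77 bp from it, at the BTF3 start in the FOXD1 window, was called in 4 libraries and was not gained, and the nearest outside lay 2782 bp beyond the FOXO1 window and was called in 2 libraries. For the SOX2 set the nearest inside lay 595 bp from the FOXL1 edge and was called in the wild type alone, and the nearest outside lay 1929 bp beyond FOXO1 and was gained with the fusion.

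Among 31 other forkhead genes, a list that leaves out the FOXA genes, 3 (FOXJ2, FOXN2 and FOXO6) had a promoter peak in all 9 lists, 14 in some and 14 in none. Their median was 1 list, against 4.5 for the 10 genes described here. Of those 10 genes 2 were called in no list, against 27.3% of all starts. A median over all starts was not computed. Calls identical in all 9 lists were found for FOXF1 with FOXO4, for FOXD1 with FOXJ1, and for FOXM1 with FOXD2 and FOXJ3. FOXC1, FOXF2, FOXL1, FOXP1 and FOXO1 had no such match.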

How the data were processed

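The authors deposited peak lists only, in which reads had already been turned into regions. Per the submitters' processing notes FastQC 0.10.1, Trim Galore, Bowtie2 2.4.4, SAMtools 0.1.18, MACS2 and deepTools 2.4.1 were used with build hg38, without their roles or settings. In the FOXA2 set the deposited fold enrichment is a ratio over each library's background, and the deposited −log10 values of p and q depend on depth. In the SOX2 set the deposited −log10 p of a peak is the lower of its 2 inputs, which are not named, and the deposited score restates the IDR. The authors' score was not used to rank peaks. Read depth is unknown, so that no interval is given. Lists were not called with one threshold: the lowest −log10 p was 3.44 and 5.43 in the wild type, 2.01 and 5.22 with full-length FOXA2, and 2.01 and 2.01 with the CTD deletion. Mitochondrial peaks, 2 in each of 4 libraries, were missing from the second replicates of wild type and full length. These 2 kinds of list were compared separately as well. No label or header names them as batches, and the lowest −log10 p still differed within the kind with mitochondrial peaks.

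Peaks on chromosomes 1–22 and X were kept, in the SOX2 set at an IDR of at most 0.05, and merged per set into regions with an overlap of at least 1 bp. Percentiles and ranks use −log10 p within a list. Positions relative to a start are those of a region's midpoint, negative upstream. Genes and starts come from RefSeq (GRCh38.p14), and the strands of 25 genes, FOXF1, FOXC2, FOXL1 and FOXM1 among them, were entered from general knowledge because the promoter table does not list them. Besides each promoter, the regions named by rule were the 3 gained and the 3 lost regions per construct with the highest minimum percentile and those gained in both sets. Other regions were chosen after their values were seen. The genes and lists were chosen with earlier results of these data known. Motifs were searched next to promoters and not around region centres. Calculations used Python 3.11.15, numpy 2.4.6, pandas 2.3.3 and matplotlib 3.10.9, and the scripts were tested on simulated data.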

Additional observations from a re-analysis of the deposited data

How the results depend on the processing

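Read depth is unknown, the peak lists differ in length and threshold, and a region not called is not shown to be closed. No paired analysis was possible because no test was fitted that could hold the replicate number as a block; the counts below that stay within one kind of list do not use that number. Of 109 values that answer a comparison, 56 stayed within 1.5 times under the alternatives and 53 moved. Of 330 others 172 stayed and 158 moved. The causes were not tested, and the shares over all regions were not counted under the alternatives. With equal numbers of peaks 2 regions were gained with full-length FOXA2 (17 with all peaks), 3 gained (18) and 1 lost (0) with the CTD deletion, 1 was full-length-only (2), 21 were lost with the fusion (11), and 3 members had a promoter peak in every SOX2-set list (5). At the common threshold full length gained 9, the deletion 3, and 0 were deletion-only (1). The planned overlap of 50% could not differ, because every peak lies wholly in its region. Requiring a peak to cover 50% of the region, chosen after seeing the data, left 11 gained with each construct and 2 deletion-only. Among the libraries with mitochondrial peaks, 77 were gained and 4 lost with full length, 2 lost with the deletion, 44 full-length-only and 4 deletion-only. Among the others, which include no deletion library, 29 were gained and 3 lost with full length. Leaving out 1 library at a time, regions gained with full length ranged from 16 to 75 (26 without full length replicate 1, 75 without replicate 2), lost from 0 to 4 (3 without wild type replicate 1, 4 without replicate 2). With the deletion, gains ranged from 17 to 72 (72 without its replicate 1, 37 without replicate 2) and losses from 0 to 2 (2 without either wild-type library). Full-length-only ranged from 2 to 44 (44 without full length replicate 2, 4 without replicate 1, 7 without deletion replicate 2). Deletion-only ranged from 2 to 36 (36 without deletion replicate 1, 19 without replicate 2, 6 and 3 without full length replicates 1 and 2, 2 without either wild-type library). Promoters in every FOXA2-set list ranged from 0 to 1, FOXM1 being the one without wild type replicate 1. In the SOX2 set, flanks of 10 kb left 12 gained and 9 lost with SOX2, and 13 gained and 7 lost with the fusion. All entries whatever their IDR gave 30 and 29 for SOX2, 46 and 25 for the fusion, and 23 fusion-only. When an entry failing the IDR limit also counted as a call on the side of the missing list, the counts were 8 and 4 for SOX2, 13 and 3 for the fusion, 0 SOX2-only and 1 fusion-only.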
